A study of Homo sapiens with 6 samples.

Results

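Metallothioneins are very small proteins, rich in cysteine, that bind zinc, copper and toxic metals such as cadmium, and the 3 genes MT2A, MT1X and MT1E were followed here through RNA of DLD1, an established human colorectal cancer cell line. The rows were found by gene symbol. All 3 genes were among the 21519 genes of the co-culture table, and 2 of them, MT2A and MT1X, were among the 9450 genes of the knockdown table, which holds genes with 1 listed 7-methylguanosine (m7G) peak each. MT1E was not analysed in the knockdown comparison. The genes were selected on their values in these tables (FPKM levels in the expression libraries and the deposited m7G changes), so those values are given as a description. Their names resemble those of mitochondrial genes (written with a hyphen, such as MT-CO1) but they are nuclear genes.

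The study compared wild-type DLD1 cells grown beside fibroblasts called S-CAFs (library S-CAFs-w13) with library DLD1-W13CM, which is read as the culture beside CAFs by elimination; nothing in its title names a fibroblast. It also compared DLD1 cells that carry a stable METTL1 knockdown, labelled sh2, with control cells labelled sh-NT, as unselected input RNA and as RNA pulled down with an m7G antibody. METTL1 is a methyltransferase that places m7G inside RNA. The knockdown rests on the single construct sh2, and although the design text speaks of replications, each of the 6 groups held 1 library, so no value below has a replicate check and no test across libraries was possible. Expression is in FPKM (fragments normalised to the length of the gene and the size of the library), and intervals in parentheses are 95% counting intervals.

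Cells keep metallothioneins low until free zinc or cadmium rises. The zinc sensor MTF1 then enters the nucleus and binds metal response elements, short repeated sites just upstream of metallothionein genes and of the zinc exporter gene SLC30A1. Glucocorticoids and cell stress also raise metallothionein mRNA, MT2A in particular, and in the gut epithelium the proteins buffer dietary zinc and copper.

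The genes lie in one cluster on the forward strand of chromosome 16, which runs from the RefSeq start of MT2A at 56608584 to the end of MT1X at 56684196 (GRCh38.p14). MT2A occupies 56608584 to 56609497, MT1E 56625781 to 56627112 and MT1X 56682470 to 56684196. Another gene of the cluster, MT1F, at 56657959 to 56659303, was also listed in both tables. The other 9 of 13 metallothionein genes looked for were found in neither table. The paralogs are so alike that reads of one can be assigned to another or dropped, so each level below is that of the reads assigned to the gene.

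The RefSeq promoter table held MT2A and MT1X but no entry matched MT1E or MT1F. Both sequences are shown because MT2A and MT1X were higher together beside S-CAFs; they give the 250 bases before the gene start, chr16:56608334-56608583 and chr16:56682220-56682469 (GRCh38.p14, forward strand), 5′ to 3′, with capitals at matches to the core of the metal response element, searched as TGCACNC and TGCGCNC on both strands.
MT2A: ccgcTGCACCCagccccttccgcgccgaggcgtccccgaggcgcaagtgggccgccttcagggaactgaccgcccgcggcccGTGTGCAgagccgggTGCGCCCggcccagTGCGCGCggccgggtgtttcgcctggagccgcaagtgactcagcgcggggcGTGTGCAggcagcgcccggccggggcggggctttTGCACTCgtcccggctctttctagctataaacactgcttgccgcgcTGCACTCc
MT1X: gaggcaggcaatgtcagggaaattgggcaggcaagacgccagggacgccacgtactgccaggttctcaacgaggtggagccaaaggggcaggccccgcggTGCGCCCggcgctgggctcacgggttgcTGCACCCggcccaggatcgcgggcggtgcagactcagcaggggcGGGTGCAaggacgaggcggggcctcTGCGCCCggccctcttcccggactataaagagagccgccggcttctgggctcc
MT2A held 7 matches, 5 on the forward strand and 2 on the reverse, between 2 and 246 bases before the start. MT1X held 4 matches, 3 forward and 1 reverse, between 47 and 150 bases before the start. No pair of matches overlapped in either sequence. Of 27305 RefSeq promoter windows of this length, 24.7% held at least 1 match, 0.366% held at least 4 and 0.033% held at least 7. Of the metallothionein genes listed in neither expression table, MT1H held 8 matches, more than MT2A, and MT1B and MT4 held 3 each. These windows are also rich in G and C, at 73.2% for MT2A and 70.0% for MT1X against a median of 58.0% over all windows. A TATAAA box began 29 bases before the start of MT2A and 30 bases before that of MT1X, in lower case above, and 7.17% of all windows held those letters. A match is a run of letters and does not show that MTF1 was bound.

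The libraries were of similar size within each table. Effective library sizes, recovered from the whole-read steps of the deposited FPKM values, were 6337932 and 6215547 fragments for DLD1-W13CM and S-CAFs-w13, and 10454179 and 11625162 fragments for control and knockdown input. The targeted gene METTL1 stood at 5.80 FPKM in control input and 3.28 FPKM in knockdown input, 1.77-fold lower (1.37 to 2.29), so it was reduced in part. In DLD1-W13CM and S-CAFs-w13 it stood at 4.82 and 1.78 FPKM, 2.705-fold lower in S-CAFs-w13 (1.75 to 4.29). EPCAM, a marker of the labelled epithelial cells, was high throughout, at 154 and 149 FPKM in the co-culture table and 228 and 235 FPKM in the knockdown table. Other epithelial markers were less steady between the co-culture libraries. Of 9 markers, EPCAM among them, 2 were past 2-fold upward in S-CAFs-w13 and 1 downward. CEACAM5 was 4.87-fold higher (2.91 to 8.61), KRT19 2.27-fold higher (2.145 to 2.40) and CDX2 2.78-fold lower (2.335 to 3.32). Between control and knockdown input, 0 of 7 markers passed 2-fold in either direction. Genes of the mitochondrial genome took 20.2% and 16.3% of the fragments of DLD1-W13CM and S-CAFs-w13, respectively.

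MT2A, the main metallothionein of most human cells, was the highest of the listed family members in every library. It stood at 40.4 FPKM in DLD1-W13CM (333 fragments), 206.0 FPKM in S-CAFs-w13 (1663 fragments), 26.9 FPKM in control input (365 fragments) and 43.3 FPKM in knockdown input (654 fragments). S-CAFs-w13 was thus the high library, and the other 3 lay between 26.9 and 43.3 FPKM. The tables were normalized separately, so levels across them are only set side by side. MT1E was the next gene in the co-culture libraries, with 18.7 FPKM from 125 fragments in DLD1-W13CM against 28.4 FPKM from 186 fragments in S-CAFs-w13. It was not listed for the knockdown, so its place among the genes of the input libraries is not known. MT1X was scarce except beside S-CAFs. It stood at 1.602 FPKM in DLD1-W13CM (18 fragments), 12.5 FPKM in S-CAFs-w13 (138 fragments), 2.21 FPKM in control input (41 fragments) and 1.07 FPKM in knockdown input (22 fragments). MT1F was the lowest listed gene in every library. It stood at 0.167 FPKM in DLD1-W13CM from 2 fragments and 1.70 FPKM in S-CAFs-w13 from 20. In control input it stood at 1.52 FPKM from 30 fragments and in knockdown input at 0.865 FPKM from 19. In both co-culture libraries the order was MT2A, MT1E, MT1X and MT1F, with counting intervals of the levels that did not overlap. In the knockdown table MT1X and MT1F overlapped within both libraries, so their order is not resolved there.

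**Figure D1:**
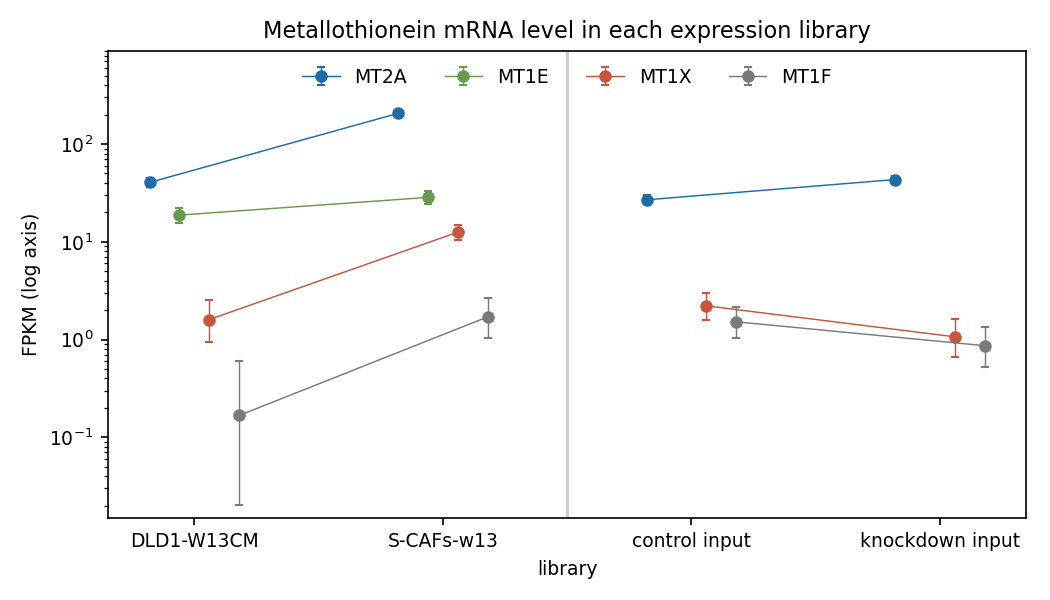
FPKM (log axis) of MT2A, MT1E, MT1X and MT1F in the 4 expression libraries, 1 library per group; bars are exact Poisson 95% counting intervals and lines join the libraries of a table. MT2A is the top listed gene in every library, and MT1E has no value in the input libraries. MT1X climbs from 1.602 to 12.5 FPKM between DLD1-W13CM and S-CAFs-w13 but is lower in knockdown input than in control input.

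The gene lengths recovered from the FPKM steps, the smallest that fit every table listing the gene, were 1299 bases for MT2A, 1052 for MT1E, 1773 for MT1X and 1889 for MT1F. RefSeq gives these genes genomic spans, introns included, of 914, 1332, 1727 and 1345 bases. The lengths used for MT2A, MT1X and MT1F were longer than the whole RefSeq span, so the gene models behind these FPKM values reach beyond it. FPKM levels scale with the length used.

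The co-culture comparison asks how the cancer cells differ when their fibroblast partners are S-CAFs. All 4 listed metallothioneins were higher in S-CAFs-w13, by unequal amounts. MT2A was 5.09-fold higher (4.52 to 5.75) and MT1X 7.82-fold higher (4.77 to 13.6), so the intervals of these 2 genes overlap. MT1E was 1.52-fold higher (1.20 to 1.92), below the intervals of both. MT1F was 10.2-fold higher, with an interval of 2.48 to 90.0 that reflects its 2 fragments in DLD1-W13CM. In bulk RNA a change in the share of cells that make a transcript cannot be told apart from a change in the amount per cell.

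**Figure D2:**
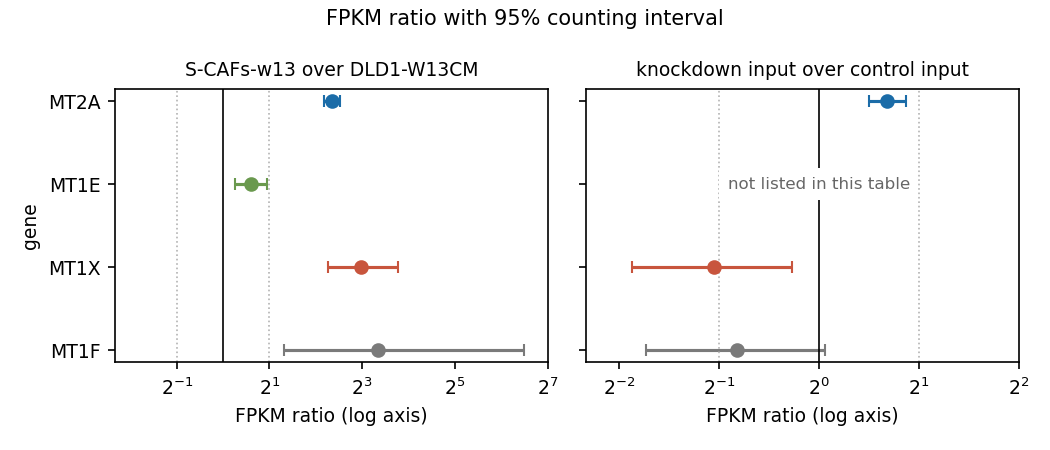
FPKM ratios (log axis, no pseudocount) with 95% Clopper-Pearson counting intervals for S-CAFs-w13 over DLD1-W13CM and for knockdown over control input; dotted lines mark 2-fold in each direction. On the left MT1E is the only interval wholly below 2-fold higher; on the right MT2A lies above 1 and MT1X below it.

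On the log2(FPKM + 1) scale, which understates the change of low genes, MT2A had a difference of 2.32, MT1X of 2.38 and MT1E of 0.58. Thus 2 of the 3 genes were at least 2-fold higher, where 9.08% of the 14739 genes averaging 1 FPKM or more were past 2-fold upward and 7.92% downward; these are the values on which the genes were chosen, so nothing is read from the count. MT1X ranked 96th and MT2A 104th from the top of those genes, while MT1E ranked 3065th. MT1F had a mean under 1 FPKM and was not ranked. The median difference of all genes was 0.02. The authors' deposited table gave log2 fold changes of 2.20 for MT2A, 2.82 for MT1X, 0.46 for MT1E and 3.21 for MT1F.

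**Figure D3:**
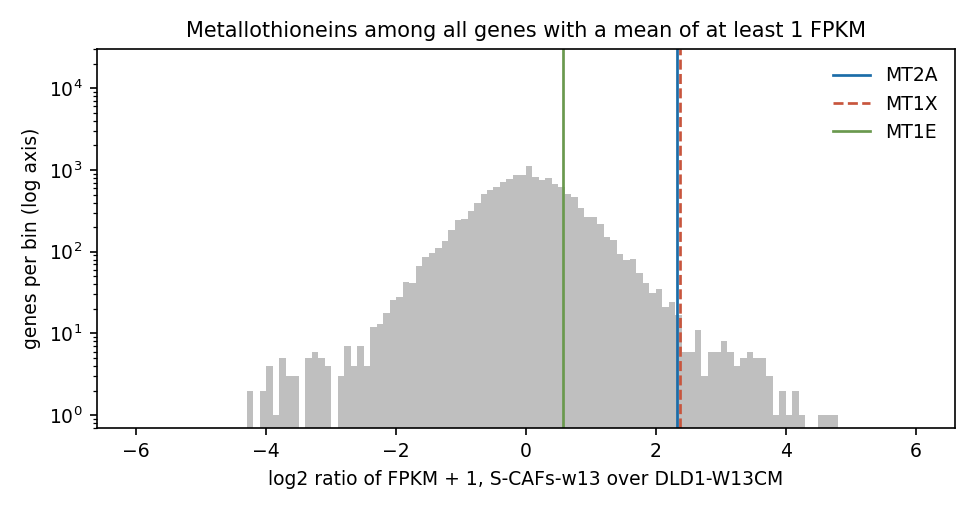
Distribution of the log2 ratio of FPKM + 1 (S-CAFs-w13 over DLD1-W13CM) over 14739 genes, as genes per bin on a log axis, with lines at MT2A (2.32), MT1X (2.38) and MT1E (0.58). The MT2A and MT1X lines fall together in the upper tail, and MT1E lies in the bulk of the genes.

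Summed over the 4 genes, metallothionein FPKM went from 61.0 in DLD1-W13CM to 248.6 in S-CAFs-w13, 4.08-fold higher, and this sum does not depend on how reads were divided between those paralogs except through the gene lengths. The make-up of the sum also differed, since MT2A gave 66.3% of it in DLD1-W13CM but 82.8% beside S-CAFs. Within a library, MT2A stood 25.25-fold above MT1X in DLD1-W13CM, compared with 16.4-fold beside S-CAFs.

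Fibroblasts also make metallothioneins, so their markers are given beside these values. Of 18 fibroblast markers 9 were listed in the co-culture table, and COL1A2, COL3A1, DCN and LUM were not among them. The listed markers summed to 3.37 FPKM (DLD1-W13CM) and 4.70 FPKM (S-CAFs-w13), with single markers from 0.0221 to 1.80 FPKM and from 0.0431 to 1.51 FPKM. The collagen gene COL1A1 stood at 0.0482 and 0.229 FPKM. The markers with the largest ratios were PDGFRB, a growth factor receptor, at 0.0221 FPKM from 1 fragment and 0.564 FPKM from 25 (25.5-fold higher, 4.17 to 1047), and COL6A1 at 0.0295 FPKM from 1 fragment and 0.331 FPKM from 11 (11.2-fold higher, 1.63 to 483). The part of fibroblast RNA in the metallothionein values was not tested.

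Other genes of metal handling went both ways. MTF1, the zinc sensor, stood at 7.18 and 10.5 FPKM, 1.47-fold higher in S-CAFs-w13 (1.28 to 1.68). SLC30A1, which pumps zinc out of the cell, stood at 10.8 and 17.6 FPKM, 1.63-fold higher (1.43 to 1.855). Among zinc exporters of the SLC30 family, 0 of the 6 averaging 1 FPKM or more were past 2-fold upward and 1 was past it downward, SLC30A6, a zinc transporter of the secretory pathway, at 10.5 and 4.04 FPKM. Among zinc importers of the SLC39 family, 0 of 11 passed 2-fold in either direction, with a median log2 difference of 0.12. Of 10 copper genes 0 passed 2-fold, and their median was -0.25. In the list of metal sensing and MTF1-linked genes, 1 of 11 was at least 2-fold higher and 0 were lower. That gene was FTL, the light chain of the iron store ferritin, at 430 and 1073 FPKM, 2.497-fold higher (2.38 to 2.62). Of all 14739 genes averaging 1 FPKM or more, 9.08% were past 2-fold upward and 7.92% downward. With lists this short, nothing about metal handling is read from these counts.

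Glucocorticoid-responsive genes were listed because MT2A is one of the classic targets of that hormone. Of the 10 averaging 1 FPKM or more, 4 were past 2-fold upward in S-CAFs-w13 and 0 downward on the log2(FPKM + 1) scale, with a median difference of -0.02. Of all 14739 genes, 9.08% were past 2-fold upward and 7.92% downward. The list was chosen with earlier results of these data known, so no hormone response is read from the count. PER1, a circadian clock gene, stood at 1.58 and 18.3 FPKM, 11.6-fold higher (9.06 to 15.01). KLF9, a transcription factor, stood at 5.21 and 18.1 FPKM, ERRFI1, a brake on the EGF receptor, at 100.3 and 250.2 FPKM, and TSC22D3, also called GILZ, at 1.79 and 5.23 FPKM. Of the 10 genes 5 lay below 0, among them FKBP5, a chaperone partner of the receptor, at 2.895 and 1.48 FPKM, 1.95-fold lower (1.52 to 2.51), and the kinase gene SGK1 at 3.51 and 1.675 FPKM, 2.09-fold lower as a plain ratio (1.49 to 2.97) though not on the log2(FPKM + 1) scale. The glucocorticoid receptor gene NR3C1 was low, at 0.189 and 0.333 FPKM.

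With METTL1 reduced, the question is which RNA levels differ, and here the metallothioneins parted. MT2A was 1.61-fold higher in knockdown input (1.415 to 1.84), while MT1X was 2.07-fold lower (1.21 to 3.65). MT1F stood 1.76-fold lower, with an interval of 0.956 to 3.30 that includes no difference. MT2A therefore stood 12.2-fold above MT1X in control input and 40.6-fold above it in knockdown input.

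On the log2(FPKM + 1) scale the differences were 0.67 for MT2A, -0.64 for MT1X and -0.43 for MT1F. Neither MT2A nor MT1X was past 2-fold on that scale, where 0.429% of 8400 genes were past 2-fold upward and 0.56% downward. MT2A ranked 145th from the top of the 8400 genes, MT1X 180th from the bottom and MT1F 466th from the bottom. The authors' deposited table gave log2 fold changes of 0.67, -1.07 and -0.83. The sum over the 3 listed genes went from 30.6 to 45.2 FPKM, 1.48-fold higher. MT2A gave 87.8% of it in control input and 95.7% in knockdown input. MT1E is missing from this sum, so these are not shares of all metallothionein RNA. Any effect of the sh2 construct other than the partial reduction of METTL1 cannot be told apart from that reduction.

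Of the metal genes, SLC30A1 stood at 9.66 FPKM in control input and 13.7 FPKM in knockdown input, 1.415-fold higher (1.27 to 1.58). MTF1 stood at 6.22 and 5.83 FPKM, and its ratio of 0.937 had an interval of 0.830 to 1.06. On the log2(FPKM + 1) scale no gene averaging 1 FPKM or more was past 2-fold among 5 zinc exporters, 7 zinc importers and 7 copper genes. The same held for 10 metal sensing and MTF1-linked genes and 8 glucocorticoid-responsive genes. KLF9, PER1, ERRFI1 and TSC22D3 stood at 5.08 and 4.99, 7.40 and 7.75, 33.5 and 34.4, and 2.03 and 2.27 FPKM. ANGPTL4, of the last list, stood at 0.694 FPKM from 18 fragments and 1.39 FPKM from 40, a plain ratio of 1.998 (1.12 to 3.70). Of those 8 genes 5 lay above 0, with a median difference of 0.05. MT2A and SLC30A1 had intervals above no difference in both comparisons. The trait is not particular to metal genes, since the keratin genes KRT8, KRT18 and KRT19 shared it. KRT19 was 2.27-fold higher in S-CAFs-w13 (2.145 to 2.40) and 1.31-fold higher in knockdown input (1.28 to 1.34). The comparisons share no library.

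The pull-down libraries bear on which transcripts carry less or more of the mark in the knockdown. The table does not name the numerator of its change, which is read here as the knockdown. On that reading the MT2A peak was among the most lowered, and the MT1X and MT1F peaks had small positive changes that did not pass the authors' FDR. In the authors' deposited table the MT2A peak lay at 56608966 to 56609202 on chromosome 16, in the authors' exon class, with a 7.07-fold enrichment, an m7G log2 change of -2.12 and an FDR of 7.94e-11. The MT1X peak, at 56682424 to 56682690 and also of the exon class, had in the authors' deposited table a 14.3-fold enrichment, a log2 change of 0.19 and FDR 0.676. The MT1F peak, at 56657724 to 56658084, had per the authors' deposited table a 6.45-fold enrichment, a log2 change of 0.62 and FDR 0.676.

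Thus 1 of the 2 peaks of MT2A and MT1X was lower at an FDR under 0.05, where 2.18% of 9450 peaks were lower and 3.07% higher by the authors' FDR. MT2A had the fifth lowest change of the 206 peaks that were lower at that FDR and the seventh smallest FDR of all peaks. By the change alone it ranked 111th of 9450, since most peaks with a lower value did not pass the FDR. With the control as numerator the ranks and shares would hold with higher and lower exchanged. Of the 1758 exon-class peaks, 24 were lower and 46 higher at that FDR, and their median enrichment was 9.43, above MT2A and below MT1X. The FDR rests on a single input and a single pulled-down library of each line and cannot cover the spread between cultures. MT1X and MT1F had 41 and 30 input fragments in control and 22 and 19 in knockdown over the whole gene, against 365 and 654 for MT2A; the part of depth in the FDR was not tested.

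**Figure D4:**
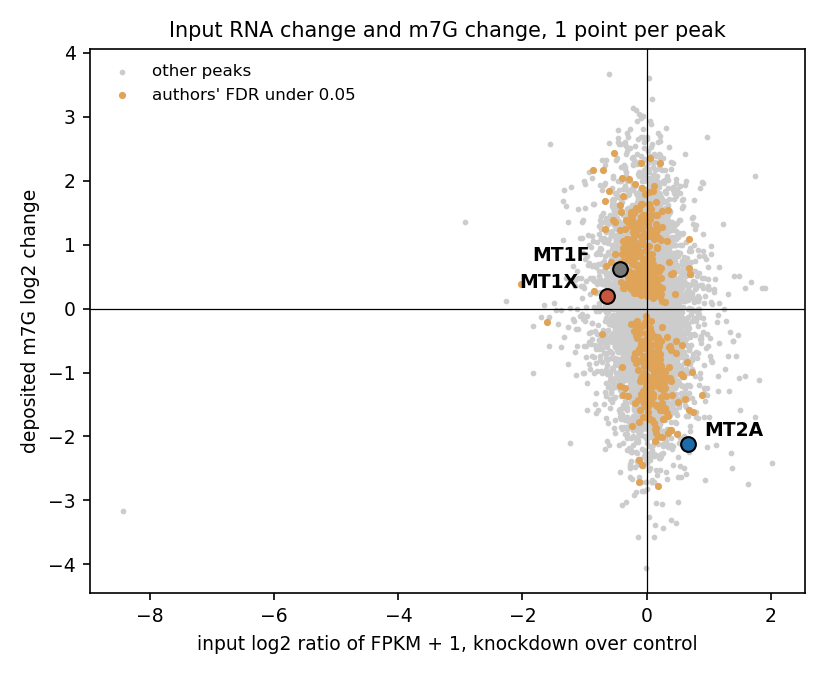
Deposited m7G log2 change against the input log2 ratio of FPKM + 1, knockdown over control, 1 point per listed peak; orange points have an FDR under 0.05 in the authors' table. MT2A sits at lower right (0.67, -2.12), and MT1X (-0.64, 0.19) and MT1F (-0.43, 0.62) sit left of centre above 0.

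MT2A thus had more input RNA in the knockdown and, if the knockdown is the numerator, a lower m7G value. Across the 9348 peaks with input above 0 in both lines, Spearman's rho between the authors' input log2 fold change and their m7G change was -0.135, a description over peaks of the same 4 libraries, whose input reads may enter both axes. Of 791 peaks in genes whose input log2 fold change was above 0.5, 436 (55.1%) had a lower m7G value, against 48.6% of all peaks, and 16 of them were lower and 4 higher at an FDR under 0.05. With the control as numerator rho would be 0.135, 334 of the 791 (42.2%) would be lower against 50.1% of all peaks, and the 16 and 4 would change places.

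The peaks also differed in position. The MT2A peak spanned 237 bases as 1 unbroken block and began 382 bases after the RefSeq gene start, in the interior of a gene whose span is 914 bases. The MT1X peak spanned 267 bases and began 46 bases before the RefSeq start, and the MT1F peak spanned 361 bases and began 235 bases before it, so both covered the start. MT2A alone of the 3 had its peak away from the start of the gene.

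**Figure D5:**
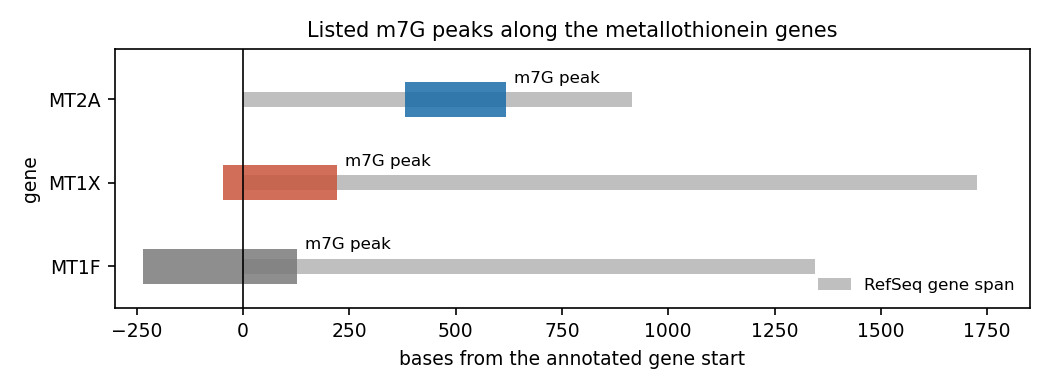
Position of the listed m7G peak (coloured bar) along MT2A, MT1X and MT1F, in bases from the RefSeq gene start (0); grey bars are the RefSeq gene spans. The MT2A peak starts 382 bases into the gene, while the MT1X and MT1F peaks cover the start.

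Likeness to other genes was measured as the distance over 3 values, the co-culture and knockdown log2(FPKM + 1) differences and the m7G change, among genes averaging 5 FPKM or more in both tables. The genes nearest to MT2A, of 4587, included TGFBR3, IGFBP4, GPRC5A and ZFC3H1. TGFBR3, a coreceptor for TGF-beta, was at a distance of 0.525, with differences of 1.80 and 0.61 and an m7G change of -2.08. IGFBP4, a binding protein of insulin-like growth factors, followed at 0.773, with differences of 2.64 and 0.01 and an m7G change of -1.88. The 5 nearest to MT1X, of 4588, were HOXB9, PJA2, KHDC4, GRB7 and SPTY2D1, from a distance of 0.442 for HOXB9 to 0.730 for SPTY2D1. Their knockdown differences ran from -0.34 for KHDC4 to 0.0095 for SPTY2D1, so none was as low as the -0.64 of MT1X. For MT1E, which has 2 libraries only, the nearest of 7346 genes by log2(FPKM + 1) level in both were NFE2L3, BAIAP2L1, AC138956.1, WASL and UBE2R2, at distances from 0.0132 to 0.0358. MT1X averages under 5 FPKM in the knockdown table and so could not be listed for MT2A; MT2A was not among the 5 nearest to MT1X.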

How the data were processed

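RNA-seq and m7G pull-down libraries of DLD1 cells were analysed from both deposited tables, with 1 library in each of 6 groups assigned by title. The co-culture values deposited by the authors are FPKM; the input columns of the knockdown table carry no unit and were taken as FPKM from their values. Per the file headers, the tables hold the authors' log2 fold change and p-value of each gene. Each peak has, from the authors, a fold enrichment ratio, a score (the p-value of the peak) and, as log10, a p-value and FDR of the peak. It also has an m7G log2 change and, as log10, the FDR and p-value of that change. Per the submitters' processing notes, cutadapt 2.5, HISAT2 2.1.0, featureCounts 1.6.3, DESeq2, SAMtools 1.10 and HOMER 4.10.4 were used, with builds GRCh38, hg38 and GRCm38 named; which step used which, and the peak caller, are not given in the sources used here. Of peaks whose gene has a RefSeq entry, 98.7% overlapped its GRCh38.p14 span.

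Levels were compared as log2((FPKM + 1)/(FPKM + 1)) over genes averaging 1 FPKM or more; folds are plain FPKM ratios. Dividing a table's 2 FPKM columns gave, after removal of 1 common factor, a fraction of whole numbers (within 1e-13 of its value) for 99.99% of the genes detected in both libraries. Library sizes followed from RefSeq gene lengths, met at that size by 359 genes in the co-culture table and 14 in the knockdown table. Clopper-Pearson 95% intervals on the fragment numbers describe counting error alone and treat PCR duplicates as separate molecules. The recovery was tested on simulated data. True fragment numbers can be whole multiples of those printed, which would narrow the intervals. Promoters are from RefSeq. Genes named are the metallothioneins, MTF1, SLC30A1, up to 4 genes past 2-fold per list, and the 5 nearest genes, of which 1 is not reported here; NR3C1, FKBP5, SGK1, COL1A1, PDGFRB, COL6A1, METTL1, EPCAM and the genes near the cluster were added after their values were seen, and KLF9, PER1, ERRFI1 and TSC22D3 are repeated for the knockdown. Members, lists and rules were chosen with earlier results of these data known. Alternatives covered pseudocount, filter, scaling, summing of paralogs and the m7G threshold. Python 3.11.15, pandas 2.3.3 and scipy 1.17.1 were used.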

Additional observations from a re-analysis of the deposited data

How the results depend on the processing

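For MT2A, MT1X, MT1E and MT1F, 37 of 39 alternative log2 differences kept their direction and 35 also stayed within the half-width of the counting interval. The exceptions came from summing all listed metallothioneins in place of each gene: 2.01 in the co-culture comparison, away from MT2A (2.32) and MT1E (0.58), and 0.55 in the knockdown, which reverses MT1X (-0.64) and MT1F (-0.43), since MT2A makes up most of the sum. Read as control over knockdown, an alternative chosen after seeing the data, the m7G changes would be 2.12 for MT2A, -0.194 for MT1X and -0.621 for MT1F, and the ranks and shares of lower and higher peaks would change places. The background counts moved with the filter and pseudocount. At a mean of at least 5 FPKM, 639 genes were past 2-fold upward and 539 downward beside S-CAFs (1338 and 1167 at 1 FPKM), and 7 and 16 in the knockdown (36 and 47). With a pseudocount of 0.1 FPKM, 1939 passed upward and 1777 downward beside S-CAFs, and 103 upward and 112 downward in the knockdown. Rescaled without mitochondrial genes, the co-culture counts were 1306 upward and 1397 downward; the knockdown table lists no such gene, so that setting was not run there. Peaks higher and lower in m7G numbered 813 and 709 at a p-value under 0.05, and 150 and 93 at an FDR under 0.01; 124 of the 206 lower peaks had a fold enrichment of at least 4. No paired analysis was possible because each group holds 1 library. The widest counting intervals were those of MT1F in both tables and of MT1X.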

Other observations

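Genes flanking the stretch from MT2A to MT1X, chosen after seeing the data, went both ways beside S-CAFs. Within 500 kb of either end, 8 other genes were listed, all with a mean of at least 1 FPKM, and their median log2(FPKM + 1) difference was -0.19. Of these, 1 was at least 2-fold higher in S-CAFs-w13 and 0 were lower, against 9.08% and 7.92% of all 14739 genes. It was HERPUD1, a component of endoplasmic reticulum protein degradation, at 12.7 and 123 FPKM, 9.69-fold higher (8.75 to 10.75). With 8 genes, nothing about the region is read from the count. The nearest listed neighbours were BBS2 before the stretch, at 3.46 and 5.96 FPKM, and NUP93 after it, at 7.88 and 6.33 FPKM. Within 100 kb 0 genes were past 2-fold. In the knockdown, HERPUD1 stood at 7.125 FPKM in control input and 7.86 FPKM in knockdown input.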
